A study of Mus musculus with 4 samples.

Results

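Cathepsins are a group of lysosomal proteases, and cystatin C is the main secreted inhibitor of those that use a cysteine. The 9 genes described here are 7 cysteine cathepsins (Ctsk, Ctsl, Ctss, Ctsb, Ctsz, Ctsh and Ctsc), the aspartic cathepsin Ctsd and cystatin C (Cst3). They were taken by gene symbol from a table of 25239 genes, and all 9 were present and passed the filter on low counts that left 15522 genes for testing.

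RNA-seq of poly(A) RNA was performed on cultured primary chondrocytes, the resident cells of cartilage, from mice. There were 2 conditional knockout (cKO) libraries, whose genotype is given as Tiki2 fl/fl; Col2a-CreERT2 and in the titles as Col2a1-Cre/ERT, and 2 control libraries, from Tiki2 fl/fl mice without the Cre. All 4 cultures received 4-hydroxytamoxifen, which switches this Cre on, and the study asks what depletion of Tiki2 (Trabd2b), a membrane protease that inactivates Wnt proteins, does to these cells. The Cre is driven by Col2a1 and so acts in chondrocytes, and as only cKO cells carry it, an effect of the Cre itself and loss of Tiki2 cannot be told apart. The sources used here give no age for the animals.

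Total counts were 76425194 and 78873054 in cKO replicates 1 and 2, and 66750140 and 77285899 in control replicates 1 and 2. Trabd2b was still expressed in the cKO cultures, at 292 and 363 CPM (counts scaled to a common library size), against 436 and 415 CPM in controls (edgeR adjusted p = 0.15), and these counts cover the whole gene, not the floxed part alone. Control replicate 1 stood apart by sex, with 112185 counts of Xist and 0 of the Y-linked Ddx3y, whereas the other libraries had 36 to 171 counts of Xist and 11073 to 12085 of Ddx3y. For the 9 genes, changes without that library are therefore given beside those with it, although only 0.0311% of all genes passed without it. The chondrocyte label fitted the marker genes, with a summed level of 11 chondrocyte markers of 15469 and 11427 CPM in cKO and 26961 and 31672 CPM in controls, although in cKO replicate 2 the sum of 10 fibroblast markers, 12238 CPM, was above it. Replicates are not described as separate animals or cultures. The 2 controls differ in sex, so their spread is not only technical, while that between the cKO libraries may be.

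Cathepsins are made as inactive precursors, carried to lysosomes by receptors for mannose 6-phosphate and activated there by acid and by other proteases. Some is secreted. In cartilage, cathepsin K is known for cutting the triple helix of type II collagen and for cutting aggrecan, and cathepsins B, L, S and D can also degrade matrix proteins. Cystatin C binds in the active cleft of the papain-like cysteine cathepsins and does not inhibit cathepsin D.

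The stretch that the cysteine cathepsins share is shown first, because it separates them from Ctsd and because reads can be assigned to each gene only where such relatives differ. These are 30 coding bases around the active-site cysteine, 5′ to 3′ on the coding strand, from the GENCODE M21 transcript with the longest coding sequence (GRCm38, the mm10 assembly), with the cysteine codon in capitals.
Ctsk: cagggccagtgtggttccTGTtgggctttc
Ctsl: cagggccagtgcgggtctTGTtgggcgttt
Ctss: cagggttcttgtggtgccTGCtgggctttc
Ctsb: cagggctcctgcggctctTGTtgggcattt
Ctsz: ccacagtactgtggttccTGCtgggcccac
Ctsh: cagggggcctgtggcagcTGCtggactttc
Ctsc: caagaatcttgtggaagcTGCtactcattt
No such stretch was found in Ctsd or Cst3. In alignments of the whole coding sequences, the longest run of identical bases was 17 between Ctsk and Ctss, 17 between Ctsk and Ctsl and 16 between Ctsl and Ctss. Ctsk and Ctss lie next to each other on chromosome 3, 17423 bases apart, with Ctsk at 95499256 to 95509362 and Ctss at 95526786 to 95556403, both on the plus strand. The other genes are Ctsl (chromosome 13, 64359337 to 64370890), Ctsb (chromosome 14, 63122462 to 63145923), Ctsz (chromosome 2, 174427493 to 174439039), Ctsh (chromosome 9, 90054152 to 90076089), Ctsc (chromosome 7, 88278085 to 88310888), Ctsd (chromosome 7, 142375911 to 142388038) and Cst3 (chromosome 2, 148871722 to 148875692). Ctsb overlaps Fdft1 on the other strand by 774 bases, and as the strand setting of the counting is not given, reads in that overlap cannot be assigned with certainty. Ctsd overlaps Gm49369 on its own strand by 6757 bases, and predicted genes or a pseudogene also overlap Ctsl, Ctss and Ctsc. Fdft1 had 3768 to 4562 counts per library, against 112885 to 143483 for Ctsb.

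All 9 genes were read in every library, at very different levels. Counts were divided by library size adjusted with TMM factors and, to compare genes, by the length of merged exons, which gives CPM per kb. Ctsd led, at 1172 ± 92.7 CPM per kb in cKO and 1403 ± 115 CPM per kb in controls (SD, n = 2 each, as for all levels below). Cst3 stood at 344 ± 20.7 CPM per kb in cKO and 313 ± 4.80 CPM per kb in controls. Ctsk stood at 261 ± 19.4 CPM per kb in cKO and 308 ± 4.72 CPM per kb in controls, and Ctsb at 286 ± 7.82 and 277 ± 12.1 CPM per kb. The 4-library ranges of Cst3 and Ctsk overlapped, as did those of Ctsk and Ctsb. Below them came Ctsz (165 CPM per kb in each group), Ctsl (132 ± 5.36 in cKO and 127 ± 5.54 in controls), Ctsh (23.5 ± 4.13 and 21.7 ± 4.18), Ctsc (3.69 ± 0.0944 and 3.06 ± 0.0994) and Ctss (0.239 ± 0.146 and 0.188 ± 0.211), whose ranges did not overlap from gene to gene. With the length of a single transcript in place of merged exons, a setting chosen after seeing the data, the 3 genes below Ctsd no longer overlapped. They then ran Cst3 (455 to 528 CPM per kb over the 4 libraries), Ctsb (342 to 372) and Ctsk (247 to 311), and the order of the others was kept.

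**Figure D1:**
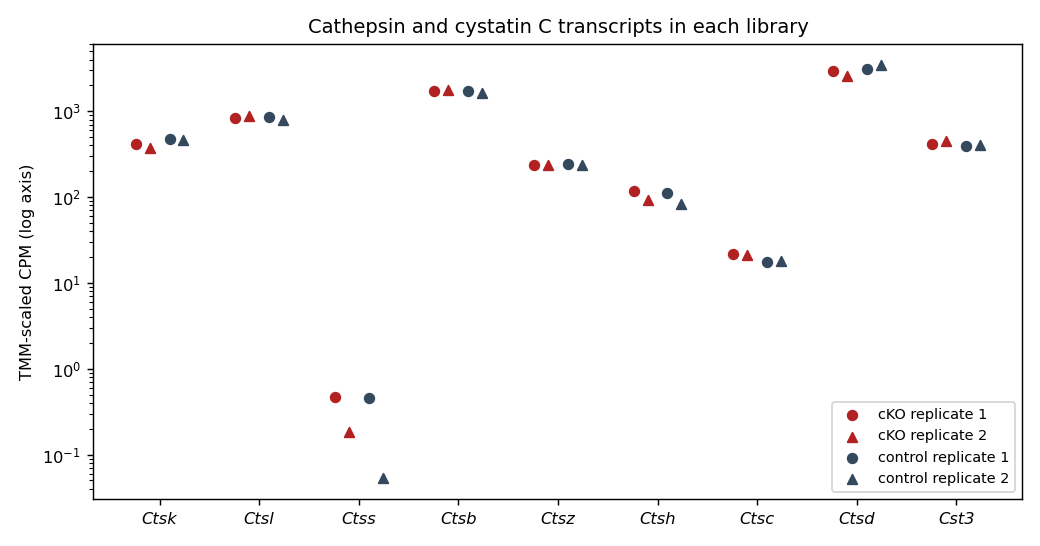
TMM-scaled CPM (log axis, not divided by gene length) of the 9 genes in each library, with circles for replicate 1 and triangles for replicate 2. Ctsd lies between 2602 and 3489 CPM in every library, and Ctss between 0.0530 and 0.464 CPM.

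No gene of the 9 changed between genotypes at an adjusted p under 0.05 (edgeR quasi-likelihood test, Benjamini-Hochberg adjustment over 15522 genes), where 1.3% of all genes tested did, 0.393% higher and 0.908% lower. That split, 61 genes higher and 141 lower with TMM scaling, was 116 higher and 123 lower with library size alone. DESeq2 called 2 of the 9, Ctsk and Ctsd, both lower in cKO, where it called 7.47% of all genes, 3.34% higher and 4.14% lower. It gave no adjusted p for Ctss. Limma-voom called none of the 9, where it called 2.15% of all genes. Before adjustment, 3 of the 9 had an edgeR p under 0.05, Ctsk and Ctsd on the lower side (8.88% of all genes) and Ctsc on the higher (8.36%), where 17.2% of all genes had one in either direction. The cKO and control libraries did not overlap for 4 of the 9, 2 above (Ctsc and Cst3) and 2 below (Ctsk and Ctsd), against 49.8% of all genes, with 24.9% in each direction. The median log2 fold change of the 9 was 0.06, beside 0.00 over all genes tested, and 7 of the 9 lay above 0, beside 50.4% of all genes. With library size alone 7 also lay above 0, beside 9714 of 15522 genes. Ctss, Ctsh and Ctsz are among the 7, and their sign turned when some single libraries were left out.

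Ctsk encodes cathepsin K, a collagenase best known from bone-resorbing osteoclasts. It had 415 and 374 CPM in cKO and 470 and 460 CPM in controls. Both cKO libraries were below both controls, and the gap between the groups was little wider than the difference between the cKO libraries. Cathepsin K transcripts had a log2 fold change of -0.24 ± 0.07 (SE; 95% interval -0.41 to -0.07), a ratio of 0.847, with an edgeR adjusted p of 0.16. It passed in DESeq2 (log2 fold change -0.24, adjusted p = 0.0247) and in edgeR without cKO replicate 1 (-0.32, adjusted p = 0.0420), where 4.9% of all genes were called and 2.94% were called lower. It did not pass in edgeR without control replicate 1 (-0.22, adjusted p = 0.40), without control replicate 2 (-0.25, adjusted p = 0.38) or without cKO replicate 2 (-0.16, adjusted p = 0.41).

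Ctsd encodes the aspartic protease of lysosomes and was the most abundant of the 9. It had 2910 and 2602 CPM in cKO and 3106 and 3489 CPM in controls. The groups did not overlap, although the difference between the 2 controls was larger than that between cKO replicate 1 and control replicate 1. On the log2 scale cKO minus control was -0.26 ± 0.08 (95% interval -0.45 to -0.06; edgeR adjusted p = 0.18). As with Ctsk, DESeq2 called it (-0.26, adjusted p = 0.0355) and edgeR did so without cKO replicate 1 (-0.34, adjusted p = 0.0360), but not without control replicate 1 (-0.34, adjusted p = 0.26). The change was smaller without control replicate 2 (-0.17, edgeR adjusted p = 0.54) and without cKO replicate 2 (-0.18, adjusted p = 0.37). Marker sums moved in the same libraries. The 4 libraries ordered by Ctsd had the same order as by the summed chondrocyte markers given above. Both were lowest in cKO replicate 2 and highest in control replicate 2. Ctsk did not follow that order, being higher in control replicate 1 (470 CPM) than in control replicate 2 (460 CPM). The summed level of 8 adipocyte markers was 313 and 505 CPM in cKO and 212 and 215 CPM in controls, and that of 10 fibroblast markers was 11718 and 12238 CPM in cKO and 10139 and 10058 CPM in controls. Their part in the values of Ctsk and Ctsd was not tested, and in bulk RNA fewer cells of a type and less RNA per cell cannot be told apart.

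The promoters of Ctsk and Ctsd are shown because these had the lowest fold changes of the 9, and because the MiT/TFE transcription factors, which drive lysosomal genes, bind E-boxes with the core CACGTG. Each run is 300 bases, from 250 before to 50 after the start of transcription in RefSeq (GRCm38.p6), written 5′ to 3′ on the strand of the gene, with matches to the motifs below in capitals.
Ctsk, chr3:95498960-95499259, plus strand: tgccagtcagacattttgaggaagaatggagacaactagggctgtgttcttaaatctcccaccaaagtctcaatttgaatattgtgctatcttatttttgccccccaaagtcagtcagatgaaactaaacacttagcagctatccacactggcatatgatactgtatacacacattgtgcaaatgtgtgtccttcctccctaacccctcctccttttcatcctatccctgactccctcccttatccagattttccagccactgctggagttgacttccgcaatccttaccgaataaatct
Ctsd, chr7:142387778-142388077, minus strand: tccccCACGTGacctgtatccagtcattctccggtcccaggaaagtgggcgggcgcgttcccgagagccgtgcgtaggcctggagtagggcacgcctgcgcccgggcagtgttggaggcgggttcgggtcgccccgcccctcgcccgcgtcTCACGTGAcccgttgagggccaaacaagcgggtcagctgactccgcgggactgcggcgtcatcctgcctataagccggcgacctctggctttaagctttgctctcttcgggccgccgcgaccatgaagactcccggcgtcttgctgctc
RefSeq starts were matched for 7 of the 9 genes. The core CACGTG, searched on both strands, was in 2 of these 7, Ctsd and Ctsl, and in 7.15% of 32851 promoters of the same length. Ctsd held it 2 times, at -245 and -98 from the start, and the second copy lies within TCACGTGA, a longer form found in 0.974% of promoters. The related motif TCATGTG was in the Ctss promoter alone of the 7 and in 3.77% of all promoters. The TCF/LEF motif ATCAAAG of Wnt signalling was in none of the 7 and in 3.73% of all promoters. A match of letters is a description of these windows only.

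The other cysteine endopeptidases differed little between genotypes or were too low to judge. Ctsb, an endopeptidase that can also trim dipeptides from the C-terminus, had 1699 and 1766 CPM in cKO and 1726 and 1623 CPM in controls. Ctsl, a broad endopeptidase of protein turnover, had 829 and 878 CPM in cKO and 847 and 796 CPM in controls. The libraries of the 2 genotypes overlapped for both genes. Their log2 fold changes were 0.05 (95% interval -0.09 to 0.19) for Ctsb and 0.06 (-0.09 to 0.21) for Ctsl, with edgeR adjusted p-values of 0.73 and 0.72. Without control replicate 1 they were 0.09 and 0.10, and without control replicate 2 they were 0.01 and 0.01. Ctss, the endopeptidase that antigen-presenting cells use to process the invariant chain, had 36 and 15 counts in cKO and 30 and 4 counts in controls. The spread within controls was wider than any gap between the groups, the 95% interval of the log2 fold change ran from -2.36 to 3.07, and a difference was not detectable at this depth. The log2 fold change was 0.35, and 2.58 without control replicate 1, and its sign turned without cKO replicate 1 (-0.46) and without control replicate 2 (-0.50).

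Of the exopeptidases, Ctsz was the most even. It encodes cathepsin X, which removes single residues from the C-terminus, and had 238 and 239 CPM in cKO and 240.4 and 236 CPM in controls. Its log2 fold change of 0.00 had a 95% interval of -0.13 to 0.13 (edgeR adjusted p = 0.995, and 0.01 as the change without control replicate 1). Ctsh, an aminopeptidase, had 119 and 92.5 CPM in cKO and 111 and 84.2 CPM in controls. Here the libraries of 1 genotype differed from each other, by 0.36 on the log2 scale in cKO and 0.40 in controls. Replicate 1 was the higher in both genotypes. The genotypes differed by less (0.12 ± 0.16, edgeR adjusted p = 0.78), and without control replicate 1 the change was 0.33. Ctsc, a dipeptidyl aminopeptidase that activates granule serine proteases of immune cells, had 21.8 and 21.02 CPM in cKO and 17.3 and 18.2 CPM in controls. Both cKO libraries lay above both controls, with a log2 fold change of 0.27 ± 0.09 (95% interval 0.06 to 0.48, edgeR adjusted p = 0.19, and 0.24 without control replicate 1).

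Cst3, the inhibitor, had 417 and 454 CPM in cKO and 392 and 400.2 CPM in controls. The cKO libraries were higher, by 0.14 ± 0.06 on the log2 scale (95% interval -0.02 to 0.30, edgeR adjusted p = 0.35), by 0.12 without control replicate 1 and by 0.08 without cKO replicate 2.

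**Figure D2:**
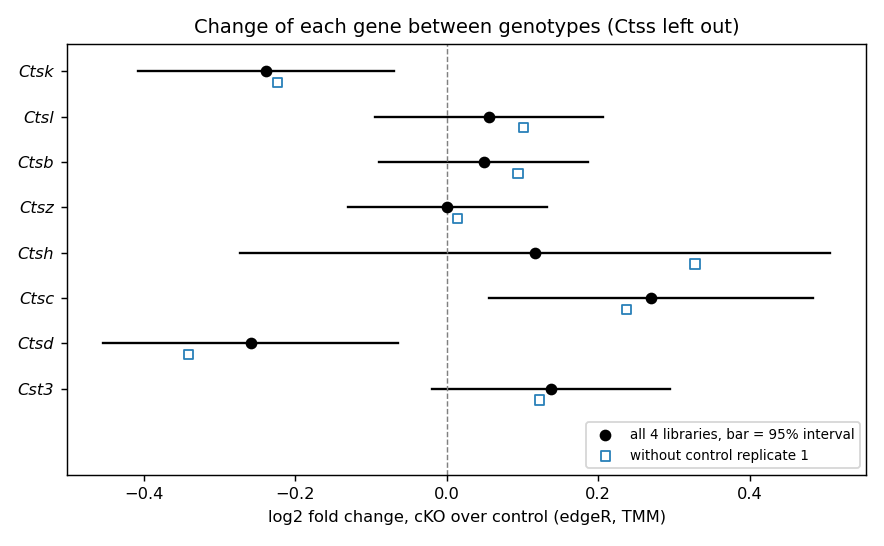
Log2 fold change of cKO over control for 8 of the 9 genes, with black points and 95% intervals from all 4 libraries and blue squares from the fit without control replicate 1. Ctsk (-0.24) and Ctsd (-0.26) lie below 0 and Ctsc (0.27) above it, and Ctss is left out because its interval runs from -2.36 to 3.07.

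Protease reads per inhibitor read were lower in both cKO libraries than in both controls for 4 of the 8 cathepsins. The share of all genes with such a ratio was not computed, so this count describes these genes only. As Cst3 itself was higher in cKO by 0.14 on the log2 scale, a gene that did not move gives a ratio difference of about -0.14, which was the value of Ctsz. For Ctsk the ratio to Cst3 was 0.995 and 0.823 in cKO and 1.20 and 1.15 in controls, a difference of -0.38 between the mean log2 ratios. For Ctsd it was 6.98 and 5.73 in cKO and 7.93 and 8.72 in controls, a difference of -0.40, although cystatin C does not inhibit that enzyme. The sum of the 7 cysteine cathepsins stood at 7.96 and 7.42 reads per Cst3 read in cKO and 8.71 and 8.04 in controls. The groups did not overlap for that sum, but cKO replicate 1 and control replicate 2 lay close, at log2 ratios of 2.99 and 3.01. The log2 difference of -0.12 between the groups was about the size of the difference between the 2 control libraries. Ratios of Ctsz and Ctsl were also lower in both cKO libraries (differences of -0.14 and -0.08), for Ctsl by a gap close to 0 between cKO replicate 1 and control replicate 2. That of Ctsc was higher (0.13), and those of Ctsb, Ctsh and Ctss overlapped. Single libraries moved these differences by over 1.5 times, to -0.24 for Ctsk, -0.25 for Ctsd and -0.08 for Ctsz without cKO replicate 2, -0.02 for Ctsl and -0.06 for the sum without control replicate 1, and 0.05 for Ctsc without cKO replicate 1. No test was made on these ratios, since all share the Cst3 value of each library and 2 libraries against 2 cannot give an exact permutation p below 0.333.

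Other cathepsins and inhibitors gave no edgeR call. Of 6 further cathepsin genes 4 were tested, and Ctse and Ctsg had 0 counts in all libraries. Ctso, a little-studied cysteine cathepsin, had 16.0 and 18.7 CPM in cKO and 11.6 and 11.8 CPM in controls, with 0.57 ± 0.12 as its log2 fold change and 0.0832 as its edgeR adjusted p. It passed in DESeq2 (adjusted p = 0.00718) and in edgeR without cKO replicate 1 (0.68, adjusted p = 0.0419), and limma-voom called none of the 4. Ctsf, another cysteine cathepsin, was at 0.14 ± 0.08, and Ctsa, a serine carboxypeptidase that protects lysosomal glycosidases, at -0.03 ± 0.05, with 658 and 646 CPM in cKO and 672 and 664 CPM in controls. Of 12 other inhibitors 7 were tested, and 2 had an unadjusted edgeR p under 0.05 (Stfa3 and Csta1), beside 17.2% of all genes. Neither DESeq2 nor limma-voom called any, but DESeq2 gave Stfa3 and Csta1 no adjusted p and so could not call them. These 2 genes for stefin-type inhibitors were each seen in 1 genotype alone. Stfa3 had 20 and 18 counts in cKO and 0 in both controls, and Csta1 had 0 in both cKO libraries and 9 and 11 in controls. They belong to a family of close copies that can share reads, so their values are uncertain. Fetub, a liver-secreted cystatin relative, was at 0.77 ± 0.38 (edgeR adjusted p = 0.37). Without cKO replicate 1, edgeR called Kng1 higher.

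No gene of the wider lysosomal machinery passed in edgeR with all 4 libraries. Of 34 other hydrolases and activators none passed in limma-voom either, and 7 had an unadjusted edgeR p under 0.05, beside 17.2% of all genes. DESeq2 called 2 higher and 1 lower, where it called 3.34% of all genes higher and 4.14% lower. The median log2 fold change was 0.02, between -0.28 and 0.37. Hexa, a hexosaminidase subunit that degrades gangliosides, had 480 and 455 CPM in cKO and 566 and 567 CPM in controls (-0.28 ± 0.06, edgeR adjusted p = 0.0850, DESeq2 adjusted p = 3.2e-04). Gm2a, the activator that hands gangliosides to that enzyme, had 67.6 and 80.5 CPM in cKO and 59.5 and 54.9 CPM in controls (0.37 ± 0.10, edgeR adjusted p = 0.13, DESeq2 adjusted p = 0.0189). Smpd1, the acid sphingomyelinase, was at 0.22 ± 0.05 (DESeq2 adjusted p = 0.0279). Enzyme and activator thus lay on opposite sides of 0. Without cKO replicate 1, edgeR called Gm2a, Lgmn and Lipa higher and Hexa lower.

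Of 25 lysosomal membrane and proton pump genes tested none passed in edgeR or limma-voom. Before adjustment 3 had an edgeR p under 0.05, all lower, beside 8.88% of all genes on that side and 17.2% in either direction. The median was -0.03, and under TMM scaling 6 of 25 lay above 0, beside 50.4% of all genes. Under library size alone 15 did, beside 9714 of 15522 genes, so no direction is given for the group. Npc1, a cholesterol exporter of lysosomes, had 162 and 154 CPM in cKO and 184 and 186 CPM in controls (-0.23 ± 0.06, edgeR adjusted p = 0.11), and Scarb2, the receptor that carries glucocerebrosidase to lysosomes, had 281 and 265 CPM in cKO and 315 and 317 CPM in controls (-0.21 ± 0.06, adjusted p = 0.15). DESeq2 called both. Atp6v1g1, a proton pump subunit, was at -0.19 ± 0.07. Of 11 genes for mannose 6-phosphate tagging and sorting none passed by any of the 3 tools. Ap1m1, an adaptor subunit (-0.18 ± 0.07), alone had an unadjusted edgeR p under 0.05, beside 17.2% of all genes. The 2 mannose 6-phosphate receptors gave small values, with M6pr at -0.11 ± 0.06 and Igf2r at -0.07 ± 0.05.

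Among 9 tested MiT/TFE factors and their regulators edgeR and limma-voom called none. Before adjustment 2 had an edgeR p under 0.05, beside 17.2% of all genes. Rragd, a Rag GTPase that relays nutrient signals at the lysosome, had 35.0 and 25.02 CPM in cKO and 42.3 and 41.6 CPM in controls (-0.48 ± 0.16, edgeR adjusted p = 0.19). DESeq2 called it (adjusted p = 0.0464), as did edgeR without cKO replicate 1 (-0.75, adjusted p = 0.00994). Fnip1, a partner of folliculin, was at -0.14 ± 0.05 and Mtor, the growth kinase, at 0.13 ± 0.06.

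**Figure D3:**
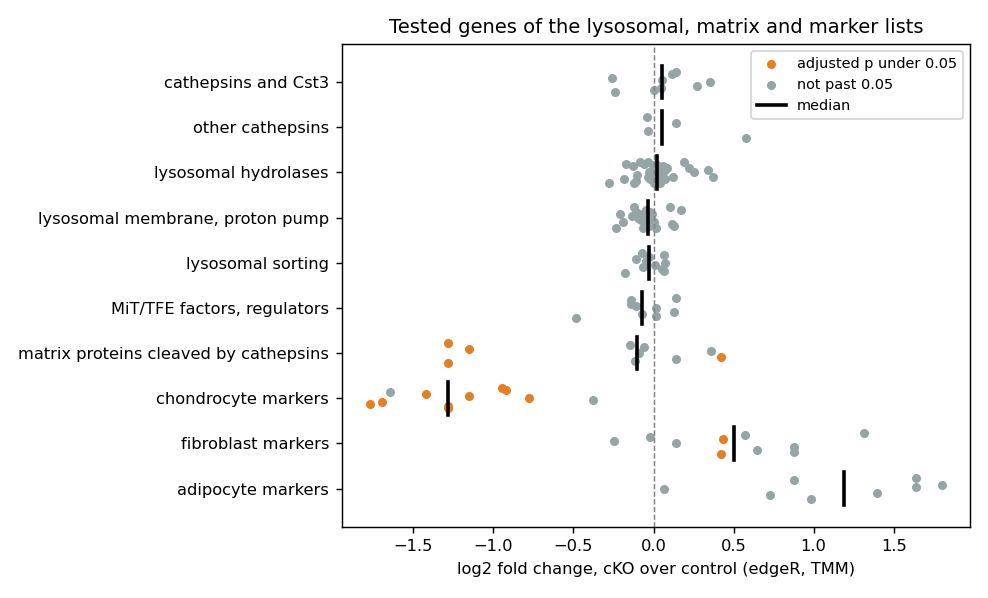
Log2 fold change of cKO over control for each tested gene (points, orange where the edgeR adjusted p is under 0.05) and the median (bar) of 10 gene lists. The cathepsin and lysosomal lists have medians between -0.07 and 0.06, while chondrocyte markers have a median of -1.28.

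Transcripts of several matrix proteins did change. Of 10 matrix proteins known as cathepsin substrates, 3 fell in cKO (Col9a1, Acan and Col2a1) and 1 rose, Col1a1, a chain of type I collagen (edgeR). Beside these and the marker counts below, edgeR called 0.908% of all genes lower and 0.393% higher, and limma-voom called 2.15%. Limma-voom called the same 4, and with either control left out edgeR called 0 of the 10. Acan, the proteoglycan aggrecan, had 1772 and 1327 CPM in cKO and 3307 and 3581 CPM in controls (-1.15 ± 0.13, edgeR adjusted p = 0.0289). Of the 11 chondrocyte markers, a list that also holds Acan, Col2a1 and Col9a1, 9 fell, led by Col9a1, Matn1 and Col9a2, with log2 fold changes of -1.28, -1.42 and -1.69, and 1 passed when either control was left out. In the same libraries 2 of 10 fibroblast markers rose, Col1a1 and Col3a1 (0.42 and 0.43), with Thy1 at 0.88 ± 0.15, and 0 passed when either control was left out. Dcn, the proteoglycan decorin and also among the most abundant of that list, lay the other way, with 1467 and 1472 CPM in cKO and 1761 and 1719.7 CPM in controls (-0.24 ± 0.05, edgeR adjusted p = 0.0830), and was called lower by DESeq2 (adjusted p = 3.1e-04) and by edgeR without cKO replicate 1 (adjusted p = 0.0376). With the replicate block, edgeR called 0 of the 10 substrates, 2 of the 11 chondrocyte markers and 0 of the 10 fibroblast markers. None of 8 adipocyte markers passed in edgeR or limma-voom. Before adjustment 6 had an edgeR p under 0.05, all higher, beside 8.36% of all genes on that side and 17.2% in either direction. DESeq2 called 5 higher, beside 3.34% of all genes, among them Cfd (1.80 ± 0.36), Cd36 (1.40 ± 0.28) and Lpl (0.98 ± 0.20). Whether these markers and substrates changed more than the cathepsins was not tested.

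Cathepsin transcripts in cultures can also come from osteoclasts and macrophages, whose markers ranged from 0 to moderate counts. Dcstamp, needed for osteoclast fusion, had 0 counts in all libraries, and Calcr, the calcitonin receptor, had 12 and 0 counts in cKO and 0 in both controls. The summed level of 10 osteoclast markers was 81.3 and 68.1 CPM in cKO and 82.5 and 77.5 CPM in controls, and Nfatc1 and Itgb3, which other cells express too, made up most of it. Of the 7 tested none passed in edgeR or limma-voom. Under TMM scaling 0 of the 7 had a log2 fold change above 0, beside 50.4% of all genes, and their median was -0.26. With library size alone 2 of the 7 lay above 0, beside 9714 of 15522 genes. DESeq2 called Atp6v0d2, a proton pump subunit of osteoclasts, lower (1.38 and 1.39 CPM in cKO and 2.77 and 2.96 CPM in controls, edgeR adjusted p = 0.13). Tnfrsf11a, the RANK receptor, had 7 and 12 counts in cKO and 27 and 28 in controls (edgeR adjusted p = 0.35), and Acp5, which encodes tartrate-resistant acid phosphatase, had 682 and 568 counts in cKO and 550 and 791 in controls (-0.26 ± 0.19). Of 16 macrophage and leukocyte markers, Fcgr1, Tyrobp and C1qb had 0 counts in all libraries, and Ptprc, the pan-leukocyte antigen, had 0 in both cKO libraries and 16 and 0 in controls. Their sum was 24.1 and 25.4 CPM in cKO and 28.2 and 20.97 CPM in controls, mostly Cd68 and Cd14, and no member of the 6 tested had an unadjusted p under 0.05 or passed in any of the 3 tools. Mrc1, a macrophage mannose receptor, was at 0.64 ± 0.28, Cd68, a lysosomal glycoprotein with 729 and 642 counts in cKO and 820 and 626 in controls, at -0.27 ± 0.22 and Cd74, the invariant chain that cathepsin S processes, at -0.54 ± 0.49. Ctsk had its lowest level, 374 CPM, in cKO replicate 2, and the part of osteoclasts or macrophages in its level was not tested.

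The genes with profiles most like those of 2 of the 9 were sought among 5736 genes whose log2 CPM averaged at least 5, by the Euclidean distance between log2 CPM profiles centred on their own means over 4 libraries. For Ctsk, the member with the smallest p, these were Rtraf, Ftl1 and Ugp2, at distances of 0.0216, 0.0216 and 0.0219, and their log2 fold changes were -0.22, -0.22 and -0.25. For Ctsd, the highest in CPM, they were Lrrc8a, Rhbdf2 and Ruvbl2, at distances of 0.0235, 0.0336 and 0.0349, with log2 fold changes of -0.25, -0.23 and -0.27. Over so few libraries such distances describe the values only.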

How the data were processed

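Per library, the authors deposited raw read counts for each gene symbol, in whole numbers. Tools named in the submitters' processing notes, in no order, are HISAT2 2.2.1, StringTie 2.1.7, FastQC 0.11.9 and Trim Galore 0.6.7, with the build mm10. How reads were counted, on which strand and with which annotation, and how reads matching several genes were treated is not given there. Of counts from 1 to 20, between 29.98% and 32.02% were multiples of 4, where even values give 25%, so dividing by 4 was tried.

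Genes were kept by filterByExpr (minimum count 10) and tested for genotype with the edgeR 4.0.16 quasi-likelihood test (R 4.3.3) on TMM-scaled counts, with Benjamini-Hochberg adjustment over all genes and a threshold of 0.05. DESeq2 1.42.0, limma-voom (limma 3.58.1), RLE or library-size scaling, no filter, a replicate block and each library left out in turn were alternatives. In simulated data the fit recovered 62.89% of 2-fold and 81.25% of 4-fold changes, and called 16 of 14986 unchanged genes. Smaller changes were not simulated. The SE of a change is its absolute value divided by the root of edgeR's F. Gene positions and lengths come from GENCODE M21 (24374 symbols matched), promoters from RefSeq.

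Named by rule are the members, up to 3 tested genes of each list with the smallest p, the nearest profiles and the label checks (Trabd2b, Xist, Ddx3y). Kng1, Lgmn, Lipa, Col2a1, Fdft1, Gm49369, Ctse, Ctsg, Dcstamp, Calcr, Nfatc1, Itgb3, Fcgr1, Tyrobp, C1qb, Ptprc, Cd14 and Dcn were named after their values were seen. The members and lists were chosen with earlier results of these data known.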

Additional observations from a re-analysis of the deposited data

How the results depend on the processing

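The count of genes called was 202, and 1160 in DESeq2, 333 in limma-voom, 371 with counts divided by 4, and 5 to 782 with 1 library left out in turn. Of the 9 cathepsin and cystatin genes 0 were called, 2 in DESeq2, and 0 to 2 with 1 library left out, the 2 being without cKO replicate 1. RLE scaling, library size alone, no filter, limma-voom and counts divided by 4 called 0 of the 9, and Ctss did not pass the filter in the last of these. The log2 fold change kept its sign with every alternative for Ctsk, Ctsd, Ctsb, Ctsl, Ctsc and Cst3, with ranges over the libraries left out of -0.32 to -0.16 for Ctsk, -0.34 to -0.17 for Ctsd and 0.08 to 0.20 for Cst3. With 1 library left out it ran from -0.50 to 2.58 for Ctss (-0.50 without control replicate 2, -0.46 without cKO replicate 1), from -0.077 to 0.33 for Ctsh (-0.077 without cKO replicate 1, -0.07 without control replicate 2) and from -0.0116 to 0.0141 for Ctsz (-0.0017 without cKO replicate 2). The cause was not tested. The log2 ratio of the summed cysteine cathepsins to Cst3 ran from -0.18 to -0.06, that of Ctsk from -0.51 to -0.24, that of Ctsd from -0.54 to -0.25, that of Ctss to Cst3 from -0.80 to 2.34 and that of Ctsh to Cst3 from -0.26 to 0.22 (0.196 without control replicate 1).

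The labels give both genotypes replicate numbers 1 and 2, without saying that a number marks an animal, litter or day, and the deviations of same-numbered libraries correlated at -0.12 over 15522 genes. With the replicate block 23 genes were called and 0 of the 9. With the crossed replicate block, chosen after seeing the data, 564 genes and 0 of the 9 were called. Leaving out a library leaves 1 library in a group, which is then assumed to vary like the others. Ctss had the fewest counts of the 9, from 4 to 36 per library, and the others had at least 1134 counts in every library. Whether depth limits any of the others was not tested.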
